A study of Homo sapiens with 18 samples.

Results

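Under doxorubicin, gene expression was compared directly between 3 arrays labelled si-hnRNPK and 3 arrays labelled si-PSTAR, which are 6 of the 18 Illumina bead arrays of the series. Both sets came from cells labelled HepG2, a line from a human hepatocellular carcinoma, that had been transfected with an siRNA and then given 400 nM doxorubicin (DOX) for 16 hours, although the treatment text of the labels also names a shorter exposure. The other 12 arrays, from cells with the same siRNAs without DOX and with a scramble control siRNA without and with DOX, are used here to estimate the spread and to set the values in context. The members were taken from the array titles as deposited, and no scramble array enters the difference. Each of 19782 genes was measured by its brightest probe over all arrays, and 12483 of them had a mean at or above the median of all probes, 5.72 log2 units, and were tested. All values are log2 intensities, a difference is the si-hnRNPK mean minus the si-PSTAR mean, and a gene is called higher or lower in the arrays labelled si-hnRNPK where limma gave an adjusted p below 0.05.

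PSTAR is a long noncoding RNA, and hnRNP K, encoded by HNRNPK, is a nuclear RNA- and DNA-binding protein that prefers runs of cytosine and is known as a cofactor of p53 after DNA damage. DOX poisons topoisomerase II and breaks DNA, which stabilises p53. The comparison holds the drug constant and changes the siRNA label, so it addresses how 2 transfections differ in damaged cells without passing through a control.

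The arrays of a group were close to each other. The correlation across genes was 0.9937 to 0.9945 among the 3 arrays labelled si-hnRNPK, 0.9943 to 0.9946 among the 3 labelled si-PSTAR, and 0.9797 to 0.9815 between them. The labels do not state whether replicate arrays were separate cultures, and all p-values below therefore rest on a spread that may be technical and on few arrays. Liver markers were weak for cells labelled HepG2. Of 9 hepatocyte markers on the array, 3 reached the median of all probes in the 6 arrays and only ALB (albumin) exceeded 7.5. APOA1 stood at 5.44 in the arrays labelled si-hnRNPK and 5.51 in those labelled si-PSTAR, APOB at 5.49 and 5.51, and TF at 5.57 and 5.62. Of 8 fibroblast markers 6 reached the median, of 7 endothelial markers 3, of 8 leukocyte markers 4 and of 4 neuroendocrine markers 1. The mean over each list, in the arrays labelled si-hnRNPK and then in those labelled si-PSTAR, ran from 5.89 to 5.98 and from 5.73 to 5.80 for hepatocyte markers and from 5.81 to 5.88 and from 5.48 to 5.51 for endothelial markers. For fibroblast markers it ran from 6.47 to 6.58 and from 6.69 to 6.82, although 3 of the 6 tested were higher and 2 lower, with a median difference of 0.06, and DCN differed most, by -2.51. The ranges of the leukocyte and neuroendocrine list means overlapped between the labels. Of the 3 hepatocyte markers tested only ALB was called, higher by 1.76, and their median difference was -0.0015. Of the 2 endothelial markers tested only CDH5 was called, higher by 2.43, while PECAM1 differed by -0.07. The part of other cell types in the results was not tested, and the cells are called here by their label. In bulk RNA, fewer cells of a type and less RNA per cell cannot be told apart.

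HNRNPK, the target of one of the siRNAs, ran against the labels. Its brightest probe stood at 11.10, 11.50 and 11.48 in the arrays labelled si-hnRNPK and at 8.46, 8.31 and 8.18 in the arrays labelled si-PSTAR. HNRNPK was thus 8.25-fold higher in the arrays named for its own siRNA (difference 3.04 ± 0.10 SE, adjusted p = 6.75e-18), whose mean of 11.36 lay near the DOX-treated scramble mean of 11.95. The next 2 HNRNPK probes differed by 2.63 and 2.22, and the fourth, which stood at 6.32 and 6.53, by -0.21. No probe carried the name PSTAR in the annotation used here, so the second siRNA has no such check, and all directions below hold for arrays as labelled.

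The poly(C)-binding paralogs of hnRNP K, which share its KH-type RNA-binding domains, differed little. PCBP1 stood at 12.62, 12.74 and 12.48 against 12.95, 12.75 and 12.73, and the groups overlapped (difference -0.20, adjusted p = 0.0917). PCBP2 differed by 0.18 (adjusted p = 0.0817) and PCBP4 by -0.37, the only paralog called. The PCBP3 probe was dim in both groups, at 5.43 and 5.47, where dim denotes a level under that of the median probe.

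**Figure D1:**
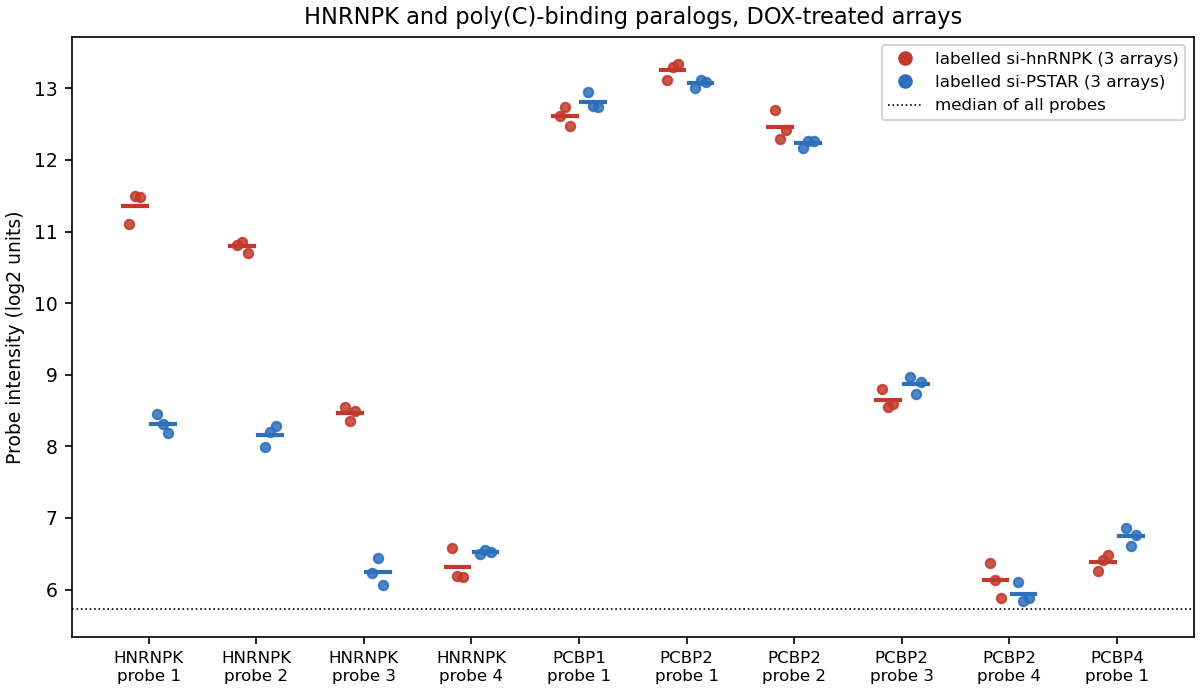
Probe intensity in log2 units of each HNRNPK, PCBP1, PCBP2 and PCBP4 probe shown, in the 3 DOX-treated arrays of each label (points) with their means (bars), and the median of all probes (dotted line). HNRNPK probes 1 to 3 lie higher in every array labelled si-hnRNPK than in any array labelled si-PSTAR, by 3.04, 2.63 and 2.22, while the paralogs differ little.

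Across the array, 5402 genes differed between the labels, 43.3% of those tested. Of these 2787 were higher in the arrays labelled si-hnRNPK (22.3%) and 2615 lower (20.9%), and 593 differed at least 2-fold (4.75%), 368 of them higher and 225 lower. The 3 arrays of one label lay entirely above the 3 of the other for 6284 genes (50.3%). Differences were mostly small: the median over all genes was -0.01 and the median size 0.21. Of 13 genes annotated as small nuclear RNA, 11 were higher, with a median difference of 2.44, and of 154 annotated as small nucleolar RNA 60 were higher and 14 lower, with a median of 0.14. Of 221 long noncoding RNA genes 49 were higher and 27 lower, with a median of 0.02, and of 11706 protein-coding genes 2605 and 2534, with a median of -0.01.

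**Figure D2:**
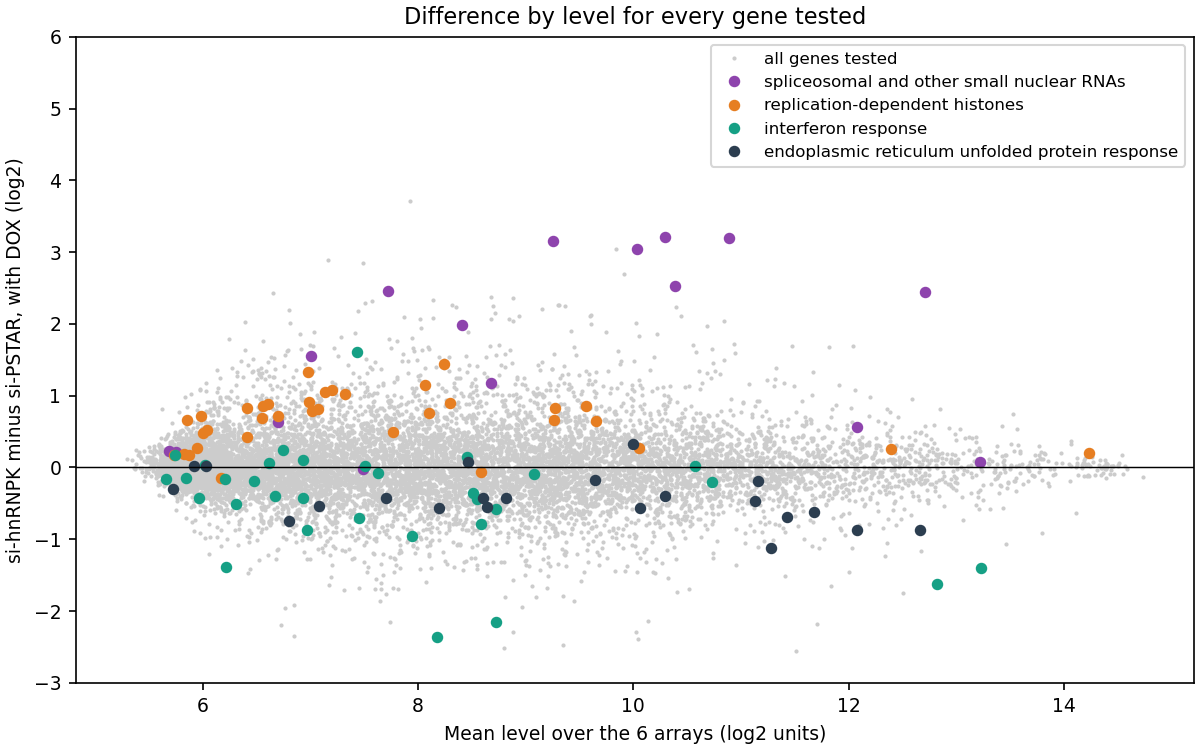
Difference between the labels in log2 units (vertical) against the mean level over the 6 arrays in log2 units (horizontal) for each of 12483 genes, with 4 gene lists coloured. The small nuclear RNAs and histones lie mostly above 0, with medians of 1.77 and 0.71, and the interferon response and unfolded protein response genes mostly below, with medians of -0.28 and -0.45.

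Small nuclear RNAs had the largest median difference of the 35 lists. These RNAs form the cores of the spliceosome, which removes introns, or act in transcription, RNA processing and protein targeting. Of 16 tested, 12 were higher by limma and 0 lower (13 and 0 at an unadjusted p under 0.05), with a median difference of 1.77. RNU1-3, a U1 gene, stood at 12.09, 11.90 and 11.72 in the arrays labelled si-hnRNPK and at 8.72, 8.66 and 8.68 in those labelled si-PSTAR, 9.28-fold higher (3.21 ± 0.09 SE, adjusted p = 1.84e-19). RNU4-2, which encodes U4, stood at 10.79, 10.81 and 10.90 against 7.59, 7.56 and 7.90, and RNU6-1, for U6, at 13.89, 13.99 and 13.91 against 11.38, 11.49 and 11.59. These 3 genes are among the largest differences, drawn from genes whose arrays do not overlap, so their separation follows from that choice. The minor spliceosome, which handles a rare class of introns, showed the same direction: RNU11 was 5.51-fold higher, RNU6ATAC 3.96-fold and RNU4ATAC 2.26-fold. RN7SK, an RNA that holds back transcription elongation, differed by only 0.56, and RMRP, the RNA of a ribosomal RNA processing enzyme, by 0.63. RN7SL1, the RNA of the signal recognition particle, differed by 0.08 (adjusted p = 0.609) and RPPH1, the RNA of ribonuclease P, by -0.01 (adjusted p = 0.931). The probes for RNU2-1 and RNU5A-1 were near or below the median of all probes, with differences of 0.23 and 0.22 that did not pass.

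For all 12 small nuclear RNAs called higher, the DOX-treated scramble mean was nearer to the arrays labelled si-PSTAR. RNU1-3 stood at 8.29 in scramble, RNU4-2 at 7.12 and RNU6-1 at 11.63. The U1 genes RNU1-1, RNU1-3, RNVU1-7 and RNVU1-18, with differences of 2.53, 3.21, 3.05 and 3.19, are near-identical copies that 1 probe may not tell apart, so they are not 4 separate results. Which forms of these RNAs, most of which carry no poly(A) tail, were amplified was not tested.

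Small nucleolar and Cajal body RNAs guide chemical modification and cleavage of ribosomal and spliceosomal RNA. Those on the list were also mostly higher. Of all 154 genes annotated as small nucleolar RNA, 60 were higher, 14 lower and 80 not called, with a median of 0.14. Of 48 listed genes tested 36 were higher and 3 lower, with a median of 0.61, and scramble lay nearer si-PSTAR in 36 of the 36. SNORD3A, a U3 gene needed for early cuts in ribosomal RNA, stood at 11.88, 11.80 and 11.90 against 9.79, 9.76 and 9.92, and SNORA12 at 9.48, 9.49 and 9.37 against 7.10, 7.22 and 7.25. SNORD3C and SNORD3D, near-identical U3 copies, were 4.31-fold and 4.76-fold higher and SNORA63 3.20-fold higher. SCARNA20 stood at 7.10 against a dim 5.61. The listed genes called lower were SNORD17, SNORA18 and SCARNA12, which differed by -0.73, -0.61 and -0.25. SCARNA12 was not called without array 1 or array 3 labelled si-hnRNPK or array 1 labelled si-PSTAR. With the filter set at the 70th percentile of all probes, 21 genes of the list were called higher.

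The RNAs that host small nucleolar RNAs in their introns did not move as a block. Among 20 host and nuclear long noncoding RNAs tested, 8 were higher and 2 lower, with a median of 0.17. TERC, the RNA template of telomerase, stood at 8.40, 8.03 and 8.12 against 7.01, 6.81 and 6.81, and SNHG15 was 2.00-fold higher. SNHG1 differed by -0.80, with H19 at -0.12 (adjusted p = 0.286). The lower count was 1 without array 2 labelled si-PSTAR. Factors that trim small nuclear RNAs and histone transcripts went both ways, 9 of 32 higher and 10 lower with a median of -0.01. The Integrator subunits INTS9, INTS10 and INTS13 were higher by 0.72, 0.64 and 0.57, and INTS2 lower at -0.88. DIS3, a nuclease of the RNA exosome, differed by -0.98, PHAX, an export adaptor of small nuclear RNA, by -0.50 and SLBP, which binds the histone stem-loop, by -0.52. The second SLBP probe differed by -0.17 (adjusted p = 0.35).

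Replication-dependent histone genes, whose transcripts end in a stem-loop in place of a poly(A) tail, were mostly higher. Of 35 tested, 28 were higher by limma and 0 lower (31 and 0 at an unadjusted p under 0.05), with a median of 0.71. H4C14 stood at 9.17, 8.88 and 8.83 against 7.39, 7.63 and 7.54, H4C2 at 7.79, 7.55 and 7.59 against 6.35, 6.25 and 6.32, and H3C10 at 7.72, 7.77 and 7.73 against 6.68, 6.68 and 6.64. In each of the 3, which were named for a small p, every array labelled si-hnRNPK lay above every array labelled si-PSTAR. The arrays of the 2 labels did not overlap for 32 of the 35 tested, against 50.3% of all genes tested. H4C8 was 2.21-fold, H3C7 2.06-fold and H2BC7 1.89-fold higher. Scramble with DOX lay nearer si-PSTAR for 26 of the 28 and nearer si-hnRNPK for 2. Histone genes are a family of near-identical copies, and which transcript forms the probes measured was not tested.

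Histone promoters are compact, and that of H3C10 is shown because it holds both motifs searched. The RefSeq window on GRCh38.p14, which runs from upstream of the start site to shortly after it, lies at chr6:27809801-27810100 on the plus strand. Capitals mark the CCAAT box and the TATAAA box on either strand.
H3C10: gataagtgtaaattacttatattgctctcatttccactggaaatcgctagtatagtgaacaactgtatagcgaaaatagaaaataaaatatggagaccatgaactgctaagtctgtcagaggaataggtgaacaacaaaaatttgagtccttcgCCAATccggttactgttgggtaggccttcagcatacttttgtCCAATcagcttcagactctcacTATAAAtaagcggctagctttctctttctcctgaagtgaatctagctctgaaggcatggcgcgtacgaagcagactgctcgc
CCAAT was present in the windows of 26 of the 32 histone genes that had one, against 34.6% of all 35116 windows, and TATAAA in 23 of 32, against 11.5%. Of the genes with CCAAT 21 were called higher, and of those with TATAAA 18. H4C14, with the largest difference of the list, held neither.

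Of 32 interferon response genes tested, 16 were lower in the arrays labelled si-hnRNPK, 2 were higher and 14 were not called, with a median of -0.28. IFITM1, a membrane protein that blocks virus entry, stood at 7.07, 6.90 and 7.02 in the arrays labelled si-hnRNPK and at 9.38, 9.35 and 9.35 in those labelled si-PSTAR, 5.15-fold lower (adjusted p = 9.34e-17). IRF9, the DNA-binding subunit of the interferon-activated complex ISGF3, stood at 7.63, 7.47 and 7.83 against 9.96, 9.79 and 9.66. IFITM3 was 3.09-fold lower and IFITM2 2.64-fold lower, although these 2 are close paralogs whose probes may share signal. IFI27 was at a dim 5.52 against 6.91, and IFIT2, which binds foreign RNA, was 1.83-fold lower. MX1, a GTPase that traps viral particles, went the other way, at 8.36, 8.08 and 8.29 against 6.76, 6.65 and 6.49, 3.05-fold higher, and HERC6 differed by 0.25. Scramble with DOX lay nearer si-PSTAR for 14 of the 16 lower genes: IFITM1 stood at 8.85 and IRF9 at 9.54 there. Without array 1 labelled si-hnRNPK, or without array 2 labelled si-PSTAR, 1 member was called higher in place of 2.

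The promoters of IFITM1, IFITM3 and MX1 are shown because the first and last differed in opposite directions while all hold a match to the core of the interferon-stimulated response element (ISRE). The RefSeq windows on GRCh38.p14 are chr11:313790-314089 on the plus strand, chr11:320811-321110 on the minus strand and, for 1 of the 3 windows of MX1, chr21:41420308-41420607 on the plus strand, printed 5' to 3' with each match on either strand in capitals.
IFITM1: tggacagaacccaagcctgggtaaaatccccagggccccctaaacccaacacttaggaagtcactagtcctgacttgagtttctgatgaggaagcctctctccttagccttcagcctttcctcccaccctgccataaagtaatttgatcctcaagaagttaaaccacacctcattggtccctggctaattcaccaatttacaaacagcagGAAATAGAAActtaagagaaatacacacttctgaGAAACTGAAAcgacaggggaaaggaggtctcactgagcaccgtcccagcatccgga
IFITM3: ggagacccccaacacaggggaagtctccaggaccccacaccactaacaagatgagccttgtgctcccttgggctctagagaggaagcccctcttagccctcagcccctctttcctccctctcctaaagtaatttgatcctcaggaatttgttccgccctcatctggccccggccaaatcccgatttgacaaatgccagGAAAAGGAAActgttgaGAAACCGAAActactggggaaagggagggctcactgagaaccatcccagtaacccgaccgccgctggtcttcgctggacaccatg
MX1: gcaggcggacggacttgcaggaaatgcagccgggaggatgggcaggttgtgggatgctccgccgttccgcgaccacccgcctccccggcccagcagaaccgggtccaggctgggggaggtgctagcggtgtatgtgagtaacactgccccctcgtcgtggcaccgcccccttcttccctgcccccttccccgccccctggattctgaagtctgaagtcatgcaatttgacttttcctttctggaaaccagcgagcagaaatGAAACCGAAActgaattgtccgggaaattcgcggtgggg
The matches start 40 and 6 bases before the start site in IFITM1, 52 and 35 bases before it in IFITM3 and 11 bases after it in MX1. The ISRE core was present in a window of 19 of the 27 interferon genes that had one, against 3.57% of all windows, and of these 19 genes 8 were called lower and 1 higher. IRF9, with a window and a large difference, held no match in it. A match is a description of the letters and not a bound site.

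Of 13 complement and acute phase genes 6 were lower and 1 higher, with a median of -0.16. C1S, a protease of the first complement component, stood at 6.68, 6.73 and 6.59 against 8.80, 8.88 and 8.77, and its partner C1R at 5.81, 5.99 and 5.85 against 7.88, 7.89 and 7.65. The second probes of these genes differed by -0.48 for C1S, where it was dim, and by -1.11 for C1R, where it was dim in the arrays labelled si-hnRNPK. SAA1, an acute phase apolipoprotein, was 1.99-fold lower and CFB 1.84-fold lower. CD55, which protects cells from complement, was 1.21-fold higher, and it was not called without array 1 labelled si-hnRNPK or without array 1 or array 3 labelled si-PSTAR. Of 13 genes of antigen presentation 4 were lower and 2 higher, with PSMB10, an immunoproteasome subunit, at 0.79 and the peptide transporter TAP1 at 0.58 while HLA-E differed by -0.52 and HLA-B by -0.03 (adjusted p = 0.866).

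Of 23 NF-kB and cytokine genes 8 were lower and 5 higher, with a median of -0.04. SOD2, the mitochondrial superoxide dismutase and a target of NF-kB, stood at 10.65, 10.68 and 10.51 against 12.92, 12.82 and 12.65, 4.55-fold lower, and its second probe differed by -2.37. The chemokine genes CXCL10, CXCL2 and CCL2 differed by -0.97, -0.98 and -0.87. NFKB2, an NF-kB subunit, and TNFAIP3, a feedback inhibitor, were higher by 0.78 and 0.54. For SOD2 the DOX-treated scramble mean of 10.06 lay on the si-hnRNPK side, and for CCL2, at 8.62, on the si-PSTAR side.

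Genes of the endoplasmic reticulum unfolded protein response, which expand folding capacity in the secretory pathway, were mostly lower. Of 22 tested, 16 were lower and 1 higher, with a median of -0.45. SDF2L1 stood at 10.86, 10.70 and 10.60 against 11.98, 11.59 and 11.93, and HSP90B1, the resident HSP90 chaperone, at 12.21, 12.26 and 12.23 against 13.13, 13.01 and 13.16. DNAJB11, MANF and PDIA6 differed by -0.88, -0.69 and -0.56, and CRELD2 by 0.33. For 12 of the 16 the scramble mean lay nearer si-hnRNPK. Among cytosolic chaperones 6 of 20 were higher and 4 lower, with a median of 0.05. HSPB1, a small heat shock protein, differed by -0.84 and HSPD1, the mitochondrial chaperonin, by 0.32. The higher count fell to 3 without array 3 labelled si-hnRNPK and to 2 without array 1 labelled si-PSTAR.

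The amino acid stress response, driven by the transcription factor ATF4, was split. Of 32 tested 16 were lower and 8 higher, with a median of -0.24. CTH, which makes cysteine from cystathionine, stood at 9.57, 9.75 and 9.82 against 7.64, 7.54 and 7.76, and its other probes differed by 1.55 and 1.48. INHBE, an activin subunit, stood at 6.16, 6.31 and 6.60 against 7.90, 8.09 and 7.97. CEBPB was 2.23-fold, DDIT4, an mTOR inhibitor, 2.18-fold and DDIT3, which encodes CHOP, 1.64-fold lower, while PCK2, SLC7A1 and PSAT1 were 1.51-fold, 1.50-fold and 1.36-fold higher. Enzymes that charge transfer RNAs were lower where they were called, 9 of 18 by limma with 0 higher (10 and 0 at an unadjusted p under 0.05) and a median of -0.26. AARS1 was 2.34-fold lower, MARS1 1.54-fold and GARS1 1.51-fold, and QARS1 differed by 0.07 (adjusted p = 0.58). Without array 3 labelled si-hnRNPK, or without array 2 labelled si-PSTAR, 1 synthetase gene was called higher.

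Metallothioneins, small proteins that bind zinc and copper, and the zinc exporter SLC30A1 were mostly lower, 5 of 7 by limma with 0 higher (5 and 0 at an unadjusted p under 0.05) and a median of -0.76. MT1F stood at 8.63, 8.54 and 8.37 against 10.38, 10.44 and 10.32, 3.64-fold lower. SLC30A1 was 2.05-fold, MT1E 1.82-fold, MT1X 1.69-fold and MT2A 1.58-fold lower, and MTF1, the zinc-sensing factor of this group, differed by -0.14 (adjusted p = 0.409). The metallothionein genes are close copies whose probes may share signal. Antioxidant genes under NRF2 went in opposite directions, 8 of 27 higher and 6 lower with a median of 0.06. HMOX1, heme oxygenase, stood at 8.34, 8.40 and 8.28 against 6.90, 6.87 and 6.83, and GCLM, of glutathione synthesis, was 2.22-fold higher. The aldo-keto reductases, which reduce steroids and carbonyls, stood at the other end. AKR1C2 stood at 10.20, 10.34 and 10.16 against 12.71, 12.91 and 12.76, the largest negative difference of the comparison at -2.56 ± 0.09 SE, AKR1C4 was 5.22-fold lower and AKR1C3 3.37-fold lower. These are close paralogs, and the 5 further AKR1C2 probes were dim and differed by -0.14 to 0.11. Catalase, encoded by CAT, was 2.12-fold lower on its brightest probe and differed by 0.02 on the second, which lay near the median of all probes.

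Genes induced by p53 were compared because DOX activates it. CDKN1A, the gene of the cyclin-dependent kinase inhibitor p21, stood at 12.12, 12.11 and 12.29 in the arrays labelled si-hnRNPK and at 11.84, 11.84 and 11.73 in those labelled si-PSTAR, a difference of 0.37 ± 0.10 SE (adjusted p = 0.00362). Its second probe differed by 0.85, and DOX-treated scramble stood at 14.31 on the brightest probe, above both. MDM2, the ubiquitin ligase that degrades p53, differed by -0.54 on a weak probe, at 5.86 against 6.40, and by 0.04 on a dim one. MYC differed by 0.09 (adjusted p = 0.449).

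Of 24 targets of arrest, repair and feedback 9 were higher and 4 lower, with a median of 0.09. XPC, a damage sensor of excision repair, stood at 9.60, 9.37 and 9.27 against 7.75, 7.31 and 7.50, 3.70-fold higher. GDF15, a secreted stress cytokine, stood at 10.29, 10.36 and 10.61 against 9.58, 9.66 and 9.44. GADD45A was 1.83-fold higher, with 1.01 on the second probe, and GADD45B 1.78-fold lower. Scramble lay nearer si-hnRNPK for 8 of the 9 higher genes: XPC stood at 10.34 and GDF15 at 12.22 there. Of 23 targets of cell death 7 were higher and 8 lower, with a median of -0.16. TP53I3 and BAX were 2.02-fold and 1.46-fold higher, with -0.05 on the second TP53I3 probe, and CASP1, a protease of inflammatory cell death, differed by -0.80. The lower count of that list was 5 by cyclic loess or with no filter, 3 without array 2 labelled si-hnRNPK and 5 without any 1 of the arrays labelled si-PSTAR.

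Genes of the cell cycle were lower more often than higher, while of all genes tested 20.9% were lower and 22.3% higher. Of 42 DNA replication genes 19 were lower and 4 higher, with a median of -0.23. RFC5, a subunit of the clamp loader, stood at 9.51, 9.59 and 9.55 against 11.16, 11.10 and 11.01, and CDC6, which licenses origins, at 7.41, 7.51 and 7.54 against 8.64, 8.86 and 8.67. The second RFC5 probe was dim and differed by -0.11. RRM2, of ribonucleotide reductase, and E2F2 were 2.17-fold and 2.04-fold lower, and RPA3 and CDC45 were 1.63-fold and 1.56-fold higher. Of 40 genes of G2/M and mitosis 14 were lower and 4 higher, with a median of -0.16. CCNA2, CENPA and AURKB differed by -0.84, -0.74 and -0.74, and DLGAP5, a spindle protein, stood at 8.75, 9.15 and 9.04 against 7.70, 7.77 and 7.74, with 1.25 on its second probe. Of 27 genes of double-strand break repair and checkpoints 9 were lower and 3 higher, with a median of -0.08. CHEK1 and EXO1 differed by -0.63 and -0.65 and FANCL by 0.55.

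Targets of YAP and SRF, transcription regulators that respond to cell tension and actin, were mostly higher. Of 25 tested 14 were higher and 4 lower, with a median of 0.25. VCL, the focal adhesion protein vinculin, stood at 12.32, 12.31 and 12.37 against 11.01, 10.97 and 11.05, and CCN2 at 10.98, 10.96 and 10.95 against 9.23, 9.49 and 9.54. Their second probes differed by 0.95 for VCL and 1.16 for CCN2. CCN1, ACTA2 and ACTG2 were 2.19-fold, 2.11-fold and 2.26-fold higher, and TACC1, CNN2 and AHNAK2 differed by -1.11, -0.91 and -0.91. In this list 15 genes had 2 probes, 8 of which were called the same way on both. Of 33 immediate early and MAP kinase feedback genes 15 were higher and 7 lower, with a median of 0.14. SRF itself stood at 10.34, 10.44 and 10.53 against 9.14, 9.06 and 9.07. JUN and the phosphatase gene DUSP5 were 2.09-fold and 2.21-fold higher, whereas JUNB was 2.11-fold lower and IER3 1.79-fold lower. Scramble with DOX stood at 12.46 for VCL and at 10.32 for SRF, close to the arrays labelled si-hnRNPK.

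Metabolic lists differed in direction. Of 28 genes of cholesterol and fatty acid synthesis 13 were higher and 3 lower, with a median of 0.25. SREBF1, the master regulator of lipid synthesis, stood at 9.35, 9.30 and 9.02 against 7.74, 7.65 and 7.63, with 1.08 on its second probe, and TM7SF2 was 2.09-fold and SCD 1.63-fold higher. MSMO1 differed by 0.68 on its brightest probe and by 0.00 on the second. Of 24 genes of the tricarboxylic acid cycle 10 were higher and 2 lower, with a median of 0.18. PC, pyruvate carboxylase, stood at 8.89, 8.95 and 9.15 against 7.08, 7.02 and 7.09, and its next 2 probes differed by 1.75 and -1.05. OGDH and DLST, of the oxoglutarate dehydrogenase complex, were both 2.12-fold higher on their brightest probes. The other OGDH probes stood at 6.06 against 5.96 and at 5.89 against 5.62. The lower count was 1 without array 1 labelled si-hnRNPK.

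Of 30 genes of glycolysis and hypoxia 12 were lower and 4 higher, with a median of -0.13. BNIP3L, a mitophagy receptor, stood at 8.30, 8.70 and 8.34 against 10.20, 10.24 and 10.29, although its second probe, which was dim in both groups, differed by -0.11 (adjusted p = 0.54). HK1 was 2.07-fold and VEGFA 1.85-fold lower, and ANKRD37 was 2.78-fold higher. Large complexes moved little as lists. Of 68 ribosomal protein genes 5 were higher and 10 lower, with a median of -0.01, and the lower count was 6 without array 2 labelled si-hnRNPK or without array 3 labelled si-PSTAR. RPL28 stood apart, 2.83-fold higher, on a probe at 8.74 against 7.24. The median levels of the list were 13.62 and 13.67. Of 54 respiratory chain genes 12 were higher and 9 lower, with a median of -0.03, and the lower count was 5 without array 3 labelled si-hnRNPK or array 2 labelled si-PSTAR. ATP5F1D, a subunit of the ATP synthase, stood at 11.70, 11.31 and 11.55 against 9.31, 9.26 and 9.27 and its second probe differed by 2.47. Of 30 proteasome genes 7 were higher and 4 lower, with a median of 0.15, and the lower count was 1 without array 2 labelled si-hnRNPK and 2 without array 1 labelled si-PSTAR. Of 37 ribosome biogenesis genes 8 were higher and 8 lower, with a median of -0.09.

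**Figure D3:**
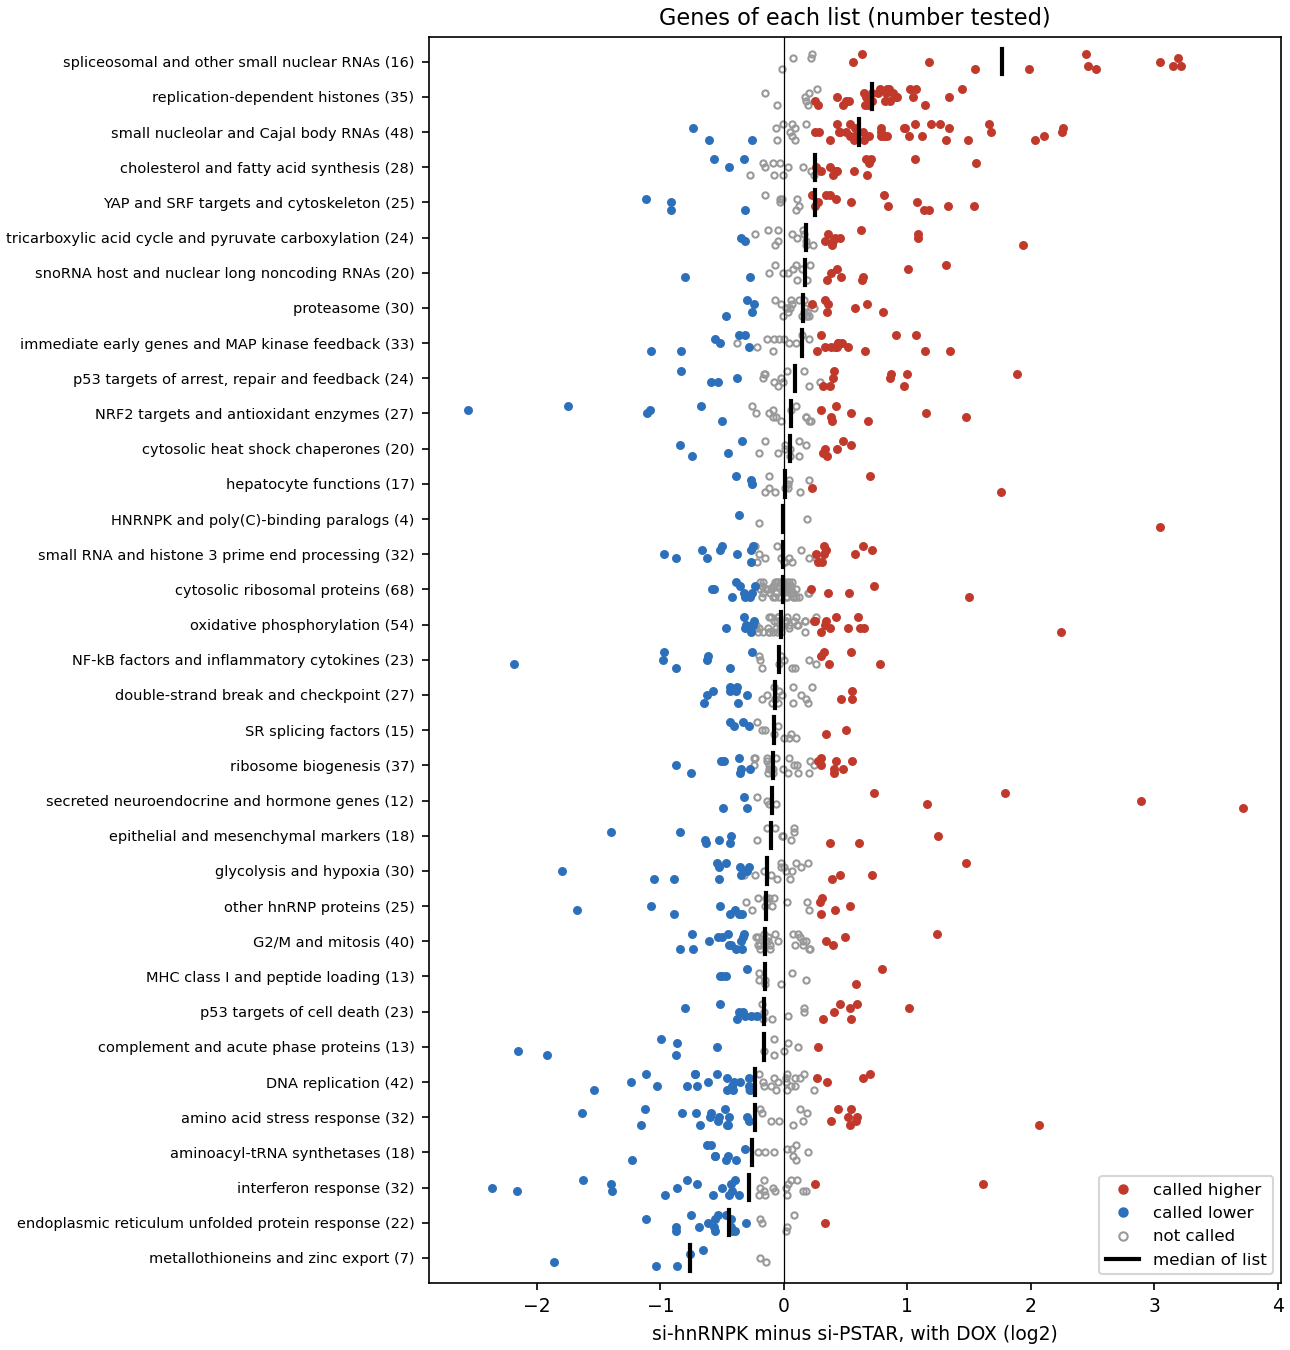
Difference in log2 units of each tested gene of 35 lists, 1 point a gene, coloured by whether it was called, with the median of each list (bar). The lists run from small nuclear RNAs (median 1.77) to metallothioneins (median -0.76), against a median of -0.01 over all genes.

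Splicing proteins gave no common direction. Of 25 other hnRNP genes 8 were lower and 5 higher, with a median of -0.15, and the higher count was 3 without array 3 labelled si-hnRNPK. HNRNPU, a scaffold protein of chromatin, stood at 8.44, 8.36 and 8.29 against 10.08, 9.97 and 10.06, 3.19-fold lower, with -0.72 on its second probe. HNRNPDL was 2.11-fold lower on its brightest probe and differed by 0.48 on the other, which was called the opposite way. PTBP2, a neuronal repressor of exons, was 1.85-fold lower, and SYNCRIP 1.45-fold higher. Of 15 SR splicing factor genes 4 were lower and 2 higher, with a median of -0.08. SRSF5 and SRRM1 differed by -0.44 and -0.41 and SRSF3 by 0.50. SRSF1 differed by 0.04 (adjusted p = 0.809). The higher count was 1 without array 3 of either label, and the second SRSF3 probe was dim in both groups.

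Of 18 epithelial and mesenchymal markers 7 were lower and 3 higher, with a median of -0.11. PLAUR, the urokinase receptor, stood at 7.46, 7.30 and 7.52 against 8.92, 8.74 and 8.82, and its other probes differed by -1.35 and -1.21. The transcription factor gene TWIST1 was 1.79-fold lower, and CLDN1, of tight junctions, 2.38-fold higher. VIM differed by -0.22 (adjusted p = 0.0611). Of 17 genes of hepatocyte function 3 were higher and 3 lower, with a median of 0.01. ALB stood at 8.63, 8.68 and 8.75 against 6.85, 6.89 and 7.06, 3.38-fold higher, with scramble at 6.84. Its second probe was dim and differed by 0.21. CPS1, of the urea cycle, stood at 13.65 against 13.43, a difference of 0.22 that only just passed (adjusted p = 0.0442) and was lost without array 1, 2 or 3 labelled si-hnRNPK and without array 1 or 2 labelled si-PSTAR. The lower count of that list was 1 without array 3 labelled si-PSTAR.

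The largest positive difference of all was that of CGA, the alpha subunit shared by the glycoprotein hormones. CGA stood at 9.78, 9.70 and 9.87 in the arrays labelled si-hnRNPK and at 6.09, 6.02 and 6.10 in those labelled si-PSTAR, 13.1-fold higher (3.72 ± 0.10 SE, adjusted p = 1.67e-19), with scramble at 6.20. The level in the arrays labelled si-PSTAR was close to the median of all probes. Of 12 secreted neuroendocrine and hormone genes 5 were higher and 3 lower, with a median of -0.09. SCG2, a granin of secretory granules, stood at 8.47, 8.67 and 8.69 against a dim 5.72, and FST, the activin antagonist follistatin, at 7.14 against a dim 5.35. ADM, adrenomedullin, was 2.23-fold higher and VGF 1.66-fold higher. The hormone beta subunit gene CGB3 differed by -0.12 (adjusted p = 0.378). For the 5 higher genes scramble lay nearer si-PSTAR. The lower count was 1 with the filter at the 70th percentile or without array 1 labelled si-hnRNPK.

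The promoter of CGA is shown because its letters hold the cAMP response element, TGACGTCA, in tandem. The motif was added after the values were seen. The RefSeq window on GRCh38.p14 is chr6:87095057-87095356 on the minus strand, with the matches in capitals.
CGA: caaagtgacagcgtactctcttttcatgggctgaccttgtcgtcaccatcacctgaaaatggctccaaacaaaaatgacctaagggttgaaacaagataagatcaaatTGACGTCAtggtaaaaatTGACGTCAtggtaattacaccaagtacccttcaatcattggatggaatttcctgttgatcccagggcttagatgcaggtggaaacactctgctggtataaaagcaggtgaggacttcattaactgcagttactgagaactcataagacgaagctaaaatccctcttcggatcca
The 2 copies start 142 and 124 bases before the start site. The letters were present in the windows of 2 of the 10 listed secreted genes that had one, CGA and VGF, against 1.85% of all windows.

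Other genes with large differences came from no common list. DENND1A, an endocytic exchange factor for RAB35, stood at 9.09, 8.91 and 8.74 against 5.83, 6.16 and 6.23, and its second probe was dim in the arrays labelled si-PSTAR. RIMKLB was 6.48-fold higher on its brightest probe while the second differed by 0.20, so that result rests on 1 probe. SMIM19 was 5.19-fold and MYO5C, a myosin motor, 5.13-fold higher, and CDH5, an endothelial cadherin, stood at 7.87 against a dim 5.44. The endothelial marker PECAM1, for comparison, was near the median in both groups, at 5.76 and 5.83.

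Among the largest negative differences, DCN, the matrix proteoglycan decorin, stood at 7.76, 7.54 and 7.34 against 10.07, 9.94 and 10.17, with -1.33 on its second probe. VAMP1, a vesicle fusion protein, stood at 8.10, 8.19 and 8.06 against 10.73, 10.55 and 10.47, with -2.19 on its second probe. Both genes were drawn from those whose arrays do not overlap between the labels, so their separation follows from that choice. TMPO, of the nuclear lamina, was 4.91-fold, MAPRE1, a microtubule tip protein, 4.90-fold, GNG10 4.39-fold, and TMED5 3.86-fold lower. MB, which encodes myoglobin, stood at 5.79, hardly above the median of all probes, against 7.74. The second TMPO probe differed by -0.42 and the second GNG10 probe, dim in both groups, by -0.02. MYCN stood at a dim 5.63 against 7.83, and TSPY26P at a dim 5.67 against 8.02.

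**Figure D4:**
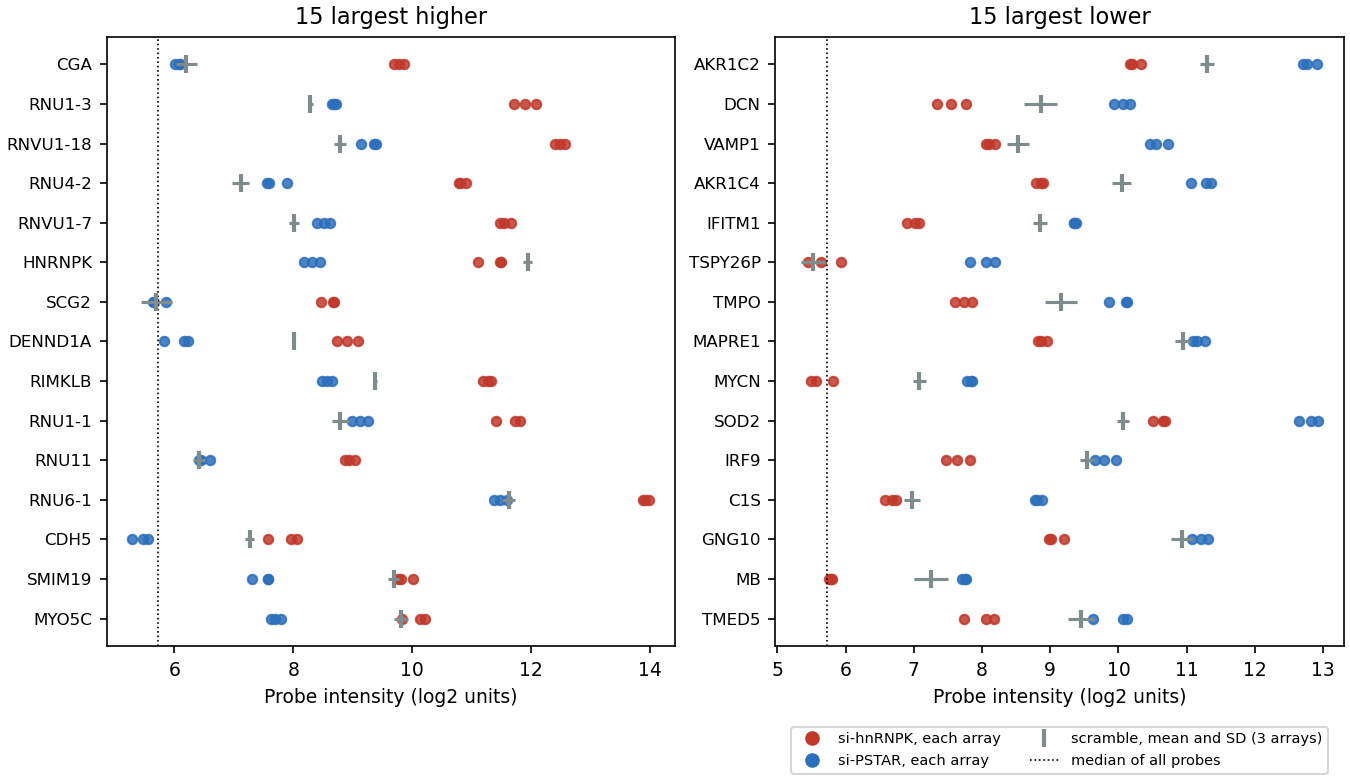
Probe intensity in log2 units in each DOX-treated array of both labels for the 15 largest positive and 15 largest negative differences whose arrays do not overlap, with the scramble mean and SD over 3 DOX-treated arrays. CGA (3.72) and AKR1C2 (-2.56) head the panels, and scramble stands near si-PSTAR for CGA and near si-hnRNPK for HNRNPK.

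Where the DOX-treated scramble arrays stood was counted for the genes that differed at least 2-fold. Of the 368 higher genes the scramble mean was nearer si-hnRNPK for 243 and nearer si-PSTAR for 125. Of the 225 lower genes it was nearer si-hnRNPK for 104 and nearer si-PSTAR for 121. The scramble mean lay between the group means for 212 of the higher and 169 of the lower genes, and outside them for the others. The lists above differ in which labelled group stood further from scramble. It was si-hnRNPK for most small RNAs and histones called higher, and si-PSTAR for XPC, VCL and PC. Both groups could stand away from scramble. XPC differed from it by -2.82 in si-PSTAR and -0.93 in si-hnRNPK, PC by -2.85 and -0.92, and SNORD3A by 1.79 and 3.83. VCL differed by -1.45 and -0.12.

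Genes with several probes gave a check within the same arrays. For 3314 genes 2 probes reached the median of all probes, and both were called in the same direction for 749 of them (22.6%), 351 higher and 398 lower, against 64 in opposite directions. Across these genes the differences on the 2 probes correlated at 0.65, and at 0.77 for the 1169 genes with both probes above 7.5, as a description, since the probes share arrays and RNA. Of 195 such genes whose brightest probe was called at least 2-fold, the second probe had the same sign in 175 and was called the same way in 144 and the opposite way in 8.

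Besides HNRNPK, the largest positive differences seen on both probes were those of ATP5F1D (2.24 and 2.47), LIAT1 (2.33 and 2.04), DENND1A and MYL5, a myosin light chain gene. The second probes of DENND1A and MYL5 were dim in the arrays labelled si-PSTAR. Their brightest probes, with 2.84 and 1.86, stood at 6.07 and 5.97 there, close to the median of all probes. The third DENND1A probe stood at 6.17 in the arrays labelled si-hnRNPK and 6.26 in those labelled si-PSTAR. On the negative side were SOD2 (-2.19 and -2.37), VAMP1 (-2.47 and -2.19), the RNA-binding protein gene RBM47 (-1.86 and -1.86), the mucin gene MUC1 (-1.80 and -1.62) and KMT5B, a histone H4 methyltransferase (-1.81 and -1.60). Among the opposed pairs, named after their values were seen, UQCR10 was 2-fold lower on its brightest probe and had 1.22 on the second. MSI2 had 1.17 and -0.93, RER1 1.10 and -0.90 and NOL12 1.07 and -0.77. The third probe of UQCR10 stood at 8.67 against 7.55, that of MSI2 at 7.16 against 6.87 and that of RER1 at 7.04 against 7.33. For these opposed pairs no direction can be given for the gene.

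**Figure D5:**
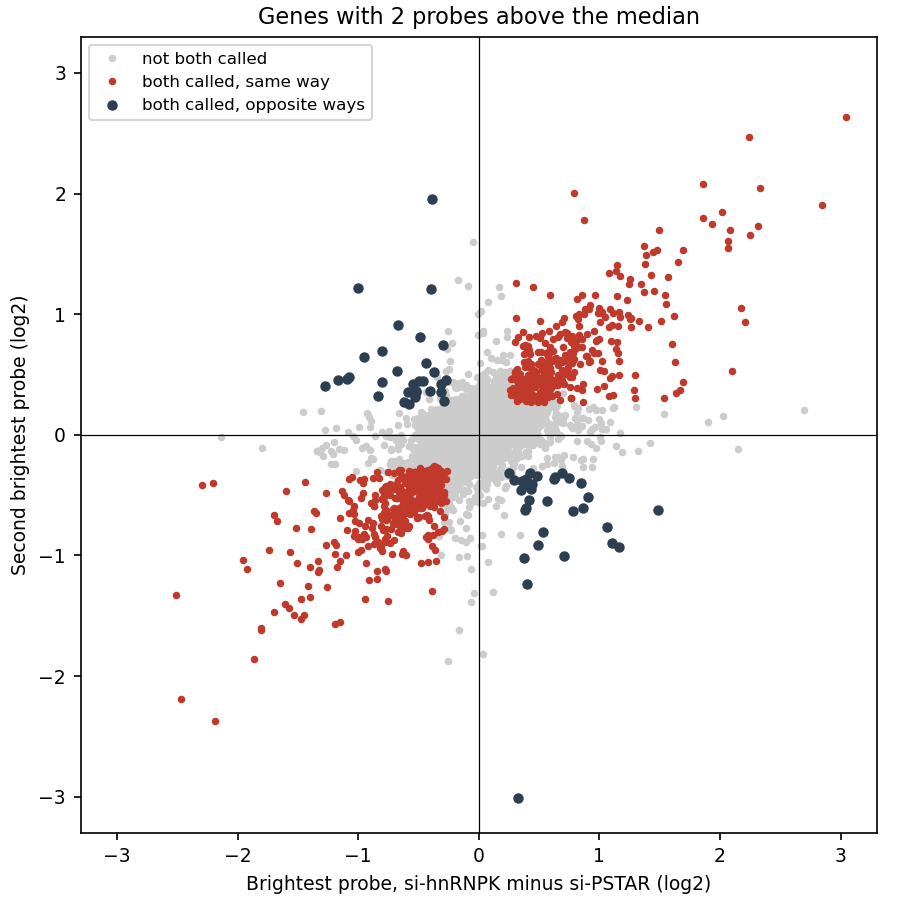
Difference in log2 units on the second brightest probe (vertical) against the brightest (horizontal) for 3314 genes with 2 probes at or above the median. The 749 genes called the same way on both lie along the diagonal, and the 64 called in opposite directions lie in the other quadrants.

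The same contrast was set beside the untreated arrays, which share no array with it. Without DOX 8312 genes differed between the labels (66.6%), 2860 higher and 5452 lower, with a median of -0.17. After cyclic loess the split was 3991 higher and 3448 lower, with a median of -0.01. Of the 5402 genes called with DOX 3779 were called the same way without it, which is 45.5% of the 8312 called without DOX, while 367 were called in opposite directions. Of the 593 genes that differed at least 2-fold with DOX, 584 were called the same way without it and 1 the opposite way. CGA differed by 3.62 without DOX, RNU1-3 by 2.90, HNRNPK by 3.11, AKR1C2 by -2.92 and IFITM1 by -2.88. The untreated contrast agreed less between probes. The 2 probes of a gene correlated at 0.31 there, against 0.65 with DOX, and the untreated arrays of the 2 labels correlated at 0.9339 to 0.9438.

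Tested as an interaction, the difference between the labels itself differed with the drug for 5572 genes (44.6%), more positive with DOX for 4038 and more negative for 1534, with a median of 0.20 over all genes. This balance rests on the scaling: after cyclic loess 3246 genes were called, 1270 more positive and 1976 more negative, with a median of 0.04. The histone gene H3C10 had an interaction of 1.21, and of 0.96 after cyclic loess, and TERC of 1.18 and 0.91. The interaction correlated at only 0.22 between the 2 probes of a gene. Its sources were not tested.

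Probes with no gene name here were counted apart. Of 14450, 5226 reached the median of all probes and 1187 of these differed with DOX (22.7%), 545 higher and 642 lower, and 90 differed at least 2-fold.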

How the data were processed

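Gene expression was measured on 18 Illumina bead arrays, 3 for each of 6 combinations of siRNA and treatment. The authors deposited log2 intensities for 43961 probes. Read from the values, they behave as quantile normalized: at equal rank the arrays agreed within 0.01 log2 units for 99.9955% of ranks, and every array had a median of 5.73. The scanner software, and whether background was corrected, is not given in the sources used here. Probe names came from the platform annotation: 29511 probes had 1 gene symbol and 14450 had none.

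Each gene took the probe with the highest mean over 18 arrays, and genes below the median of all probes (5.72) were not tested. With limma 3.58.1 (R 4.3.3), a group-means model used every one of the 18 arrays, and Benjamini-Hochberg adjusted p-values over 12483 genes were called below 0.05. With 3 arrays against 3, an exact permutation test of 1 gene cannot give a two-sided p below 0.1. The model was tested on simulated data. Tables and plots were made with Python 3.11.15, pandas 2.3.3, numpy 2.4.6 and matplotlib 3.10.9. Promoter windows came from RefSeq on GRCh38.p14.

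Members and gene lists were chosen with earlier results of these data known. Named were HNRNPK and its paralogs, CDKN1A, MDM2, MYC, the 15 largest differences each way among called genes whose arrays do not overlap, any member of lists with at most 20 tested genes, up to 6 members of longer lists with the smallest p in each direction, the 5 largest interactions and the 5 largest differences seen on both probes, each way. Marker genes are named from their lists. Alternatives covered the normalization, the filter, the probe chosen, the arrays fitted, the prior, array weights, the replicate number and each array left out.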

Additional observations from a re-analysis of the deposited data

Results flagged for a closer look

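The difference between the labels itself differed with DOX, by limma's interaction test, for 5572 genes, and for 3246 after cyclic loess. Toward the positive side the largest interactions on the log2 scale were those of PIMREG (1.60), SNORD3C (1.42), SLC19A2 (1.41), ENTPD3 (1.32) and ZBTB7A (1.29). SNORD3C, a U3 gene, differed by 2.11 with DOX and by 0.69 without it, whereas SLC19A2, a thiamine transporter gene, differed by 0.01 and -1.40. Toward the negative side were RPL23 (-5.00), RPL23AP87 (-4.50), PTGES3 (-4.46), RPL23AP64 (-4.19) and PTMA (-4.17). For these 5 the large difference lay in the untreated arrays. RPL23, a ribosomal protein gene, differed by -0.04 with DOX and by 4.95 without it, and PTMA, which encodes prothymosin alpha, by 0.19 and 4.36. In all 5 the untreated arrays labelled si-PSTAR stood low. RPL23 was at 7.78 in them, against 12.74 for si-hnRNPK and 12.75 for scramble without DOX. With DOX it was at 8.04, 8.00 and 7.30. PTMA was at 5.83, 10.19 and 10.11 without DOX, and at 5.80, 5.99 and 5.67 with it. RPL23AP87 and RPL23AP64 are pseudogenes with near-identical copies, so their probes may share signal. After cyclic loess PIMREG had 1.34, ZBTB7A 1.03, RPL23 -5.24 and PTMA -4.44, and all 10 kept their direction and an adjusted p below 0.05 by limma. What set the untreated arrays apart was not tested.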

How the results depend on the processing

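Leaving out each array in turn gave 4866 to 5027 called genes with DOX and an HNRNPK difference of 2.98 to 3.17. Using the second brightest probe, which leaves fewer genes to test by construction, 1235 genes were called, 597 higher and 638 lower, with 120 at least 2-fold, 2458 without DOX and 1794 for the interaction. After cyclic loess 3246 genes were called for the interaction, with 39.1% more positive against 72.5% as deposited, and without DOX 53.6% of calls were higher against 34.4%; the cause was not tested. Cyclic loess moved the median of all genes by 0.01 and the share of calls that were higher from 51.6% to 54.3%. With the replicate number as a block 5411 genes were called, 5334 of them also called without it. The numbers share no stated source, and deviations of same-numbered arrays correlated at 0.19, 0.04 and 0.06, so they were not taken as pairs. A change of sign was counted only for genes called in the main fit or in the alternative. The difference changed sign on the second probe for CAT (0.0246), HNRNPDL (0.48), MDM2 (0.0426), MSI2 (-0.93), NOL12 (-0.77), PCBP4 (0.13), RER1 (-0.90), SRSF3 (-0.0773), TP53I3 (-0.0488), TSPY26P (0.11) and UQCR10 (1.22), and with the mean of all probes for HSPD1 (-0.0367), RER1 (-0.0295) and UQCR10 (0.45). Of 3078 values of named genes under the alternatives, 3009 kept their call and, where called in either fit, their direction. Many of these genes were named for a large difference or small p in this contrast. That share therefore does not describe the other genes called. Genes near the median of all probes have levels limited by signal over background.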
